A study of Mus musculus with 12 samples.

Results

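The 8 genes Pdk4, Cpt1a, Ehhadh, Vnn1, Acot1, Acadm, Acadl and Fabp1, which act in fatty acid oxidation or are known targets of the nuclear receptor PPAR alpha, were followed in the livers of Fah knockout mice, a model of hereditary tyrosinemia type I. Every probe set annotated to 1 of these symbols and to no other gene was taken, which gave 12 of 22626 probe sets on the Affymetrix 430A array and 13 of 45037 on the 430 2.0 array. Fah encodes fumarylacetoacetate hydrolase, which completes the breakdown of tyrosine, and the drug NTBC protects mice without it by blocking the pathway upstream. Cdkn1a encodes p21, an inhibitor of the cell cycle. All mice were adults of 10 weeks. On 430A the Fah p21 off group held 2 livers of double knockout mice, and the Fah off group held 3 livers of Fah knockout mice, all taken 14 days after NTBC was withdrawn. The Normal group held 4 livers of 1 mouse each, namely a Fah, p21 knockout on NTBC (Normal 4), a Fah knockout on NTBC (Normal 3), a wildtype on NTBC (Normal 2) and a wildtype on water (Normal 1). The 430 2.0 array held 2 further Fah p21 off livers and 1 Normal liver of a double knockout on NTBC, which has the same replicate number as Normal 4 and may be the same mouse. The knockout alleles are therefore carried by both groups of livers off NTBC and by part of the controls. The sources used here give neither strain nor sex.

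PPAR alpha forms a heterodimer with the retinoid X receptor RXR alpha, is activated by fatty acids and their derivatives, and raises genes of fatty acid transport and oxidation in the liver during fasting. Fatty acids enter mitochondria through the carnitine shuttle, whose first and rate-controlling enzyme is CPT1A, and are then shortened in cycles that begin with acyl-CoA dehydrogenases such as ACADM and ACADL. Very long and dicarboxylic chains are shortened in peroxisomes, where EHHADH carries out the middle steps of the cycle. PDK4 phosphorylates and inhibits pyruvate dehydrogenase, which limits the burning of carbohydrate. ACOT1 cleaves acyl-CoA to free fatty acid, VNN1 is a pantetheinase in the breakdown of coenzyme A, and FABP1 is the abundant fatty acid binding protein of the hepatocyte cytosol.

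The labels were checked on Fah, which had a signal of 100.8 to 114.2 in the 5 livers off NTBC, 233 and 181.9 in Normal 4 and Normal 3, and 7120.1 and 6868.1 in Normal 2 and Normal 1. Probe sets of 1 gene are told apart by the ends of their identifiers. For Cdkn1a the one ending in _a_at was at 9.5 and 8.2 in Fah p21 off, 989.5 to 1861.5 in Fah off and 14.7 to 51.4 in Normal livers. The one ending in _at was at 1827.6 and 2059.6, 2814 to 3935.7 and 75.2 to 257.7 in these groups. Since their place relative to the deleted part of the gene is unknown here, the second one checks no label. Signals are MAS5 intensities on a linear scale, given in the order of the replicate numbers and read within 1 probe set at a time. Changes are log2 differences ± SE of signals raised by an offset of 9.9 (3.8 on 430 2.0), which understates the change of dim probe sets, and the test was passed where limma's adjusted p was under 0.05. The titles call the livers biological replicates, and the few arrays limit the precision of every value. The 9 arrays of 430A had median signals of 110.6 to 146.2. Of 10 hepatocyte markers 8 were measured, and none of these was dim. Their summed signal was 70967 to 76476.9 in Fah p21 off, 72922.3 to 80888.6 in Fah off and 111929.5 to 122910.4 in Normal livers. Cholangiocyte markers (5 of 7 measured, with Krt19, Krt7 and Cftr below the filter level on all arrays) summed to 261.9 to 370.3, 207.7 to 262.9 and 81.2 to 158.2 in the same order of groups, and macrophage markers (7 of 7) to 9326.6 to 9633.3, 6803.6 to 8663.8 and 4476 to 8387.2. Their part in the results below was not tested. Adipocyte markers (3 of 6, with Adipoq and Lep below the filter level on all arrays) summed to 179.4 to 211.7, 121 to 198.2 and 122.7 to 197.2, and striated muscle markers (7 of 7, with 6 below that level) to 172.2 to 209.2, 150.1 to 197.9 and 132.8 to 230.2. In bulk liver, fewer cells of a type and less RNA per cell cannot be told apart.

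RefSeq promoter windows of GRCm38.p6 matched 7 of the 8 genes. The windows ran from 250 bases before to 50 bases after the start of each gene, other than for Cpt1a. Its upstream bases (chr19:3323051-3323300) lie inside the annotated gene, which begins at 3322326, so its window is that of a later start. Both strands were searched for DR1, the direct repeat of AGGTCA spaced by 1 base that PPAR alpha and RXR bind. The best match was scored by how many of its 12 fixed letters agreed. Shown are the upstream bases of Fabp1, the only one of the 7 with a score that few promoters reach, and of Pdk4, Acot1 and Ehhadh, the 3 genes with a promoter that rose off NTBC. Capitals mark the best match, and sequences run 5′ to 3′ on the strand of the gene.
Fabp1, chr6:71199629-71199878, plus strand: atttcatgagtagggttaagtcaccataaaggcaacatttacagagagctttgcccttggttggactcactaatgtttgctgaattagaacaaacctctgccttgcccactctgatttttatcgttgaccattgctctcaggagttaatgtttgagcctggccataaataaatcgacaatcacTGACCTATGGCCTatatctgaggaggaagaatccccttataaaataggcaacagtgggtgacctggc
Pdk4, chr6:5496279-5496528, minus strand: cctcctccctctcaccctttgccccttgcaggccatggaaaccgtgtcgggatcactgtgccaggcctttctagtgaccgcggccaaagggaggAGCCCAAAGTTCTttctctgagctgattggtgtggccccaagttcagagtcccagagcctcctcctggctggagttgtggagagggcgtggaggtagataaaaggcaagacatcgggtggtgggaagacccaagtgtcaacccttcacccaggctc
Acot1, chr12:84009252-84009501, plus strand: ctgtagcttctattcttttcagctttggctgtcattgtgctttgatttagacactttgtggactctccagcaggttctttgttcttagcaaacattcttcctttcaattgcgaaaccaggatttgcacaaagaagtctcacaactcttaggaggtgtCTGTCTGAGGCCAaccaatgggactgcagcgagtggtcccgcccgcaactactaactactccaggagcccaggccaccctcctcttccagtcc
Ehhadh, chr16:21787835-21788084, minus strand: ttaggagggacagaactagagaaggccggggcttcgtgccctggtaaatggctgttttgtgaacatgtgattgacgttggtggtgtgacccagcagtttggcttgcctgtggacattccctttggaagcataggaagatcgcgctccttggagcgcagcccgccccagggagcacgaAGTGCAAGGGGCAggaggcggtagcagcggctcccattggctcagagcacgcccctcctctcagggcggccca

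The Fabp1 match agreed at 11 of 12 letters, on the reverse strand 67 to 55 bases before the start, and 0.554% of the 32851 promoters of the table hold a match of that score or better. The best matches of Pdk4, Acot1, Ehhadh and Cpt1a agreed at 8 letters, which 79.8% of promoters reach, that of Acadm at 9 letters (24.6% of promoters) and that of Acadl at 7 letters (99.9%). A match is a string of letters and not a binding site, and elements outside this window were not searched.

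The first comparison asked what NTBC withdrawal did in Fah knockout liver (Fah off, n = 3, against Normal, n = 4). The 8 genes split into 3 sets. Pdk4, Acot1, Vnn1 and Ehhadh rose, Fabp1 fell, and Cpt1a, Acadm and Acadl did not pass the test. Of 11 probe sets tested 4 rose and 2 fell in limma (adjusted p under 0.05), where 35.5% of all probe sets passed, 20.1% higher and 15.4% lower. The 2 groups did not overlap for 8 of the 11, and did not overlap for 42.1% of all probe sets. The remaining member probe set, the second one of Acadl, was below the 40th percentile of its array on all arrays and was not tested.

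Pdk4 had signals of 2212.1, 2577.3 and 1801.2 in the Fah off livers, against 73.2, 54.9, 40.5 and 47.4 in the Normal livers. The lowest liver off NTBC thus stood far above the highest control. All 4 controls lay below the 40th percentile of their arrays, the level of the filter on dim probe sets, so that the probe set entered the test through the 5 livers off NTBC and the control level has only an upper bound. With the controls raised to that level, Pdk4 was at least 23.6-fold higher in Fah off (adjusted p = 3.8e-08, limma, with a fitted log2 change of 5.12 ± 0.19, SE, that depends on the dim controls). Such bounds are given below for every gene whose controls were all dim.

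Acot1 had signals of 1598.4, 1849.8 and 2217.2 in Fah off livers, against 212.5, 289.1, 131.7 and 71.5 in Normal livers. The groups did not overlap, and the controls spanned a wider relative range than the livers off NTBC. The log2 change was 3.50 ± 0.35 (11.3-fold, adjusted p = 2.64e-05, limma). Acot1 and Acot2 are near-identical neighbours, and a probe set annotated to both, which is no member, changed by 3.15 ± 0.20 (adjusted p = 1.23e-06). A probe set annotated to Acot2 alone changed by 0.63 ± 0.33 and did not pass (adjusted p = 0.161). It was dim, at 67.3 to 168.7 in Fah off and 44.8 to 106.8 in Normal livers, near the filter level of 73.8 to 100.1. On 430 2.0 a brighter probe set of Acot2 alone had 688.6 and 880.4 in Fah p21 off livers, against 278.1 in the Normal liver. The shared probe set had 2438.8 and 3290.7 there, against 221.2.

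Vnn1 had signals of 4499.9, 4899.2 and 5188.1 in Fah off livers, against 275.3, 428.9, 1653.3 and 1141.7 in Normal livers. All livers off NTBC were above all controls, and among the controls the 2 wildtypes were the low ones. The log2 change was 2.80 ± 0.49 (6.95-fold, adjusted p = 0.00106, limma). Ehhadh had signals of 6060.7, 5655.6 and 6850.1 in Fah off livers, against 2228.1, 2609.7, 2032.1 and 1493.1 in Normal livers. These groups did not overlap either, and the log2 change was 1.59 ± 0.17 (3.00-fold, adjusted p = 4.13e-05).

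Fabp1 moved the other way. Its _at probe set had signals of 10350.7, 10323.9 and 10790.4 in Fah off livers, against 17961.9, 17682.2, 16543 and 15627 in Normal livers. The groups did not overlap, and the log2 change was -0.69 ± 0.08 (adjusted p = 8.96e-05, limma). Its second probe set, ending in _a_at, averaged 7359 ± 431 in Fah off livers (SD, n = 3) and 11781 ± 696 in Normal livers (SD, n = 4), a log2 change of -0.68 ± 0.09 (adjusted p = 0.000193). The summed hepatocyte markers given above were also lower off NTBC, and their part in the fall of Fabp1 was not tested. After quantile normalization the fall of the _at probe set was -0.24 (adjusted p = 0.0149).

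The members of mitochondrial entry and of the first oxidation step, Cpt1a, Acadm and Acadl, did not pass. The main probe set of Cpt1a, ending in _at, had signals of 2407.2, 2947.3 and 2873.9 in Fah off livers, against 3010.3, 3133.2, 3818.7 and 3686.7 in Normal livers. The groups did not overlap, but the highest liver off NTBC and the lowest control nearly met, and the log2 change of -0.31 ± 0.13 did not pass (adjusted p = 0.0772, limma). Of its 2 dimmer probe sets, both ending in _x_at, the brighter changed by -0.89 ± 0.33 (adjusted p = 0.0582) and the dimmest by -1.23 ± 0.45 (adjusted p = 0.0512), with overlapping groups in both. Both passed without Fah off 3 (-1.30 and -1.69) and without Normal 3 (-1.08 and -1.48), the dimmest also with the 25th percentile as offset (adjusted p = 0.0474), and the main probe set passed at -0.46 with only the knockout livers on NTBC as controls.

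Acadm, the medium-chain acyl-CoA dehydrogenase, had signals of 4701.4, 4421.1 and 6792.1 in Fah off livers, against 5675.7, 7182, 4976.7 and 5794.3 in Normal livers. The groups overlapped, and the log2 change was -0.17 ± 0.16 (95% interval -0.53 to 0.19, adjusted p = 0.453, limma). Acadl, the long-chain enzyme, had signals of 2657.3, 3100.3 and 3240.8 in Fah off livers, against 2638.4, 2646.6, 2561.6 and 2242.9 in Normal livers. Here the lowest liver off NTBC only just exceeded the highest control, and the change of 0.25 ± 0.11 did not pass (adjusted p = 0.117), although it did after quantile normalization (0.35, adjusted p = 0.0199). The second Acadl probe set stayed dim, at 66.2, 54.2 and 30.1 in Fah off livers, against 52.3, 24.5, 34.1 and 40.9 in Normal livers.

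**Figure D1:**
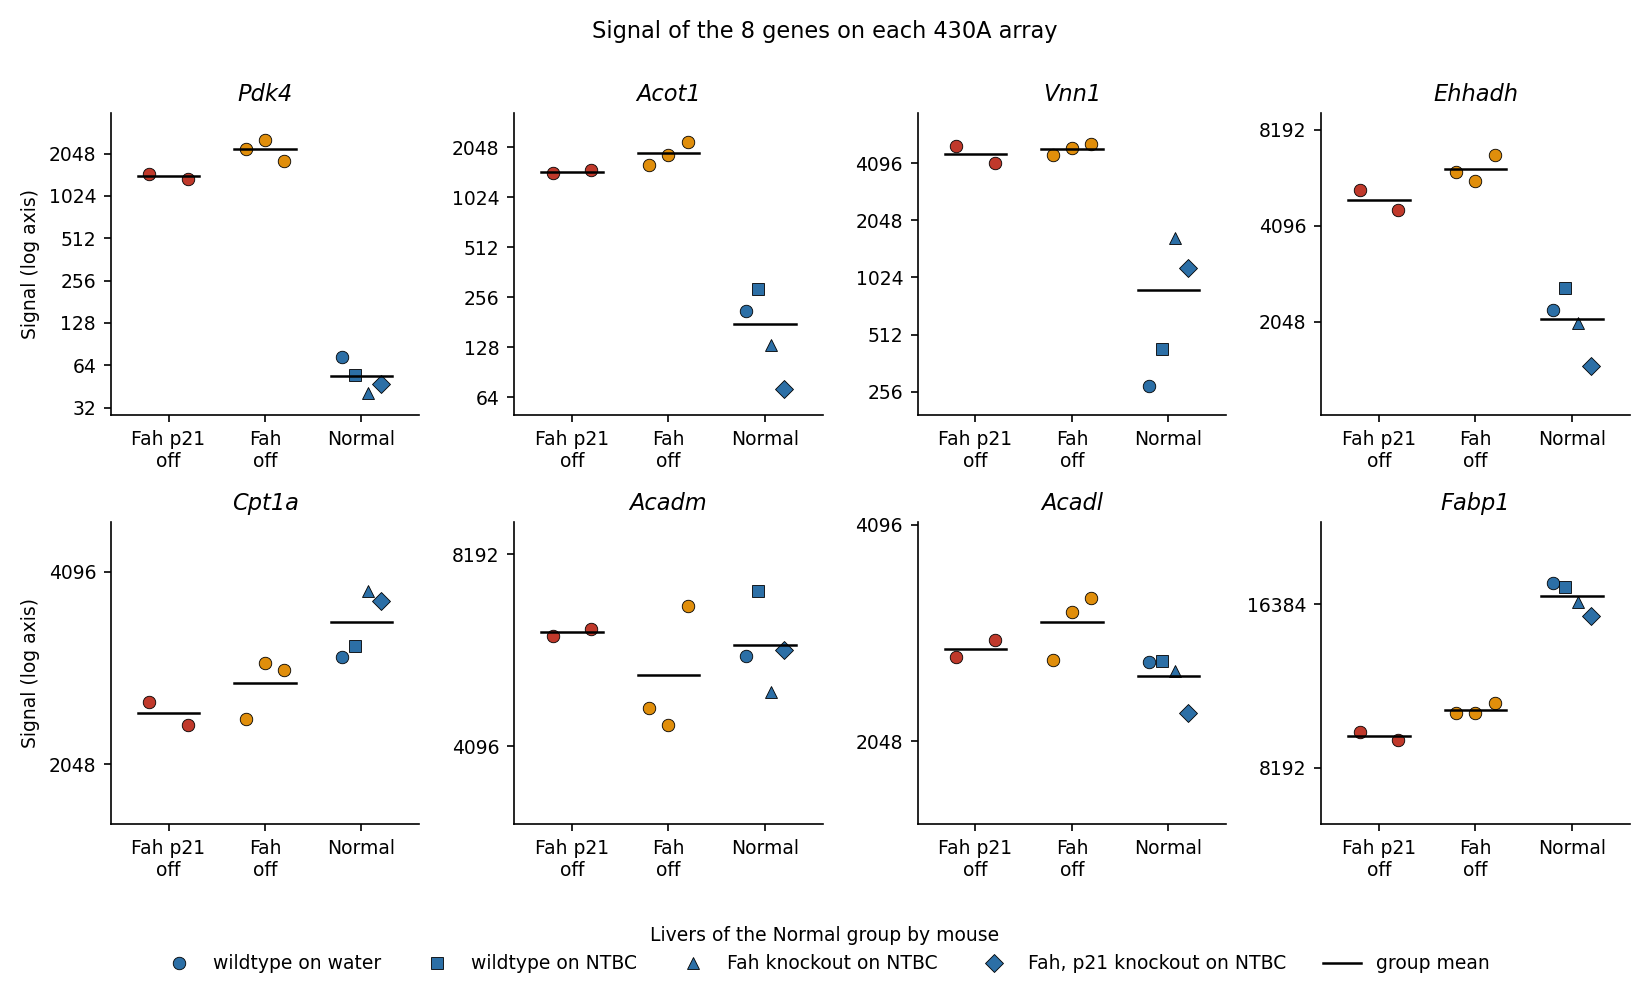
Signal of each of the 8 genes on the 9 arrays of 430A (log axis, 1 probe set per gene, that of highest mean signal), by group, with the group mean as a line and the mouse of each Normal liver given by its symbol. Pdk4, Acot1, Vnn1 and Ehhadh lie higher in all 5 livers off NTBC than in the 4 Normal livers and Fabp1 lies lower, while Vnn1 separates the knockout from the wildtype livers within the Normal group.

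The second comparison put the same question to double knockout liver (Fah p21 off, n = 2, against the same Normal livers, n = 4). Pdk4, Acot1, Vnn1 and Ehhadh rose again, and Fabp1 and the main probe set of Cpt1a fell. Of 11 probe sets tested 4 rose and 3 fell in limma, where 28.4% of all probe sets passed, 17.7% higher and 10.7% lower. Higher calls made up 62.4% of all calls, and 39.3% when the arrays were scaled to a common median instead. The median log2 change of all probe sets tested was 0.11 and moved to -0.13 with median scaling. Both groups of livers off NTBC were set against the same 4 controls, so the 2 comparisons are not independent. For 8 of the 11 probe sets the groups did not overlap, as they did not for 47.5% of all probe sets.

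Pdk4 had signals of 1475.2 and 1345.9 in Fah p21 off livers, against 40.5 to 73.2 in Normal livers, and was at least 15.4-fold higher (adjusted p = 3.43e-07, limma). Acot1 had 1431 and 1497.8, against 71.5 to 289.1, a change of 3.15 ± 0.40 (8.86-fold, adjusted p = 0.000218). For each of these genes both livers off NTBC lay close together and above every control. Vnn1 had 5068.7 and 4124.3 in Fah p21 off livers, against 275.3 to 1653.3 in Normal livers, a change of 2.71 ± 0.55 (6.55-fold, adjusted p = 0.00386). Ehhadh had 5316.3 and 4597.4, against 1493.1 to 2609.7, a change of 1.27 ± 0.19 (adjusted p = 0.000685).

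Fabp1 had 9550.9 and 9220.7 at its _at probe set in Fah p21 off livers, against 15627 to 17961.9 in Normal livers, a log2 change of -0.85 ± 0.09 (adjusted p = 8.66e-05, limma). The _a_at probe set had 6222 and 6800.1, against 10910.3 to 12580.4 (-0.85 ± 0.10, adjusted p = 0.000156). Quantile normalization left -0.28 and -0.32, both still past the test. The main Cpt1a probe set had 2564.6 and 2356.9 in Fah p21 off livers, against 3010.3 to 3818.7 in Normal livers, a change of -0.46 ± 0.14 (adjusted p = 0.0324). This call held in 11 of 19 alternative settings, and leaving out either Fah p21 off liver, Normal 3 or Normal 4 ended it (adjusted p = 0.0967, 0.188, 0.0659 and 0.0598). Quantile normalization (-0.23, adjusted p = 0.303), limma without the intensity trend (adjusted p = 0.065) and the genotype-matched control (-0.58, adjusted p = 0.103) ended it too. The dimmer Cpt1a probe sets changed by -0.58 ± 0.38 and -0.86 ± 0.51 and did not pass (adjusted p = 0.284 and 0.241). Acadm had 6111 and 6251.7, within the control range, and changed by 0.08 ± 0.18 (adjusted p = 0.793), a difference that passed with quantile normalization (0.49, adjusted p = 0.0315). Acadl had 2679.2 and 2830.1, just above the control range, and changed by 0.13 ± 0.13 (adjusted p = 0.504), and its dim probe set had 76.7 and 51.3.

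The Normal group pools 4 conditions. At the brightest probe set of each gene, Vnn1 and Acot1 were the members with the largest log2 differences between each knockout liver on NTBC and the wildtypes. Vnn1 was 3.26-fold higher in Normal 4, the double knockout on NTBC, and 4.70-fold higher in Normal 3, the Fah knockout on NTBC, than the mean of the 2 wildtypes, which differed from each other by 0.62 on the log2 scale. Of all probe sets tested, 1.33% were at least 2-fold above the wildtype mean in both knockout livers. Acot1 ran the other way, with a log2 difference from the wildtype mean of -1.66 in Normal 4 and -0.86 in Normal 3, against 0.43 between the wildtypes. With 1 mouse a condition there is no test of these differences. The fit that set the livers off NTBC against the liver of their own genotype on NTBC gave smaller rises of Vnn1, of 1.99 ± 0.20 for Fah p21 off (adjusted p = 0.00159, limma) and 1.55 ± 0.19 for Fah off (adjusted p = 0.00203). In the same fit Acot1 rose by 3.73 ± 0.23 in Fah off. It was at least 13.9-fold higher in Fah p21 off than in Normal 4, where it was dim, and Pdk4 was at least 13.4-fold higher in Fah p21 off than in Normal 4 and at least 23.2-fold higher in Fah off than in Normal 3. Ehhadh rose by 1.72 ± 0.19 and 1.60 ± 0.18, and Fabp1 at its _at probe set fell (-0.74 and -0.66, adjusted p = 0.016 and 0.0142). Each of these contrasts rests on 1 control liver, which is assumed to vary like the livers off NTBC.

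**Figure D2:**
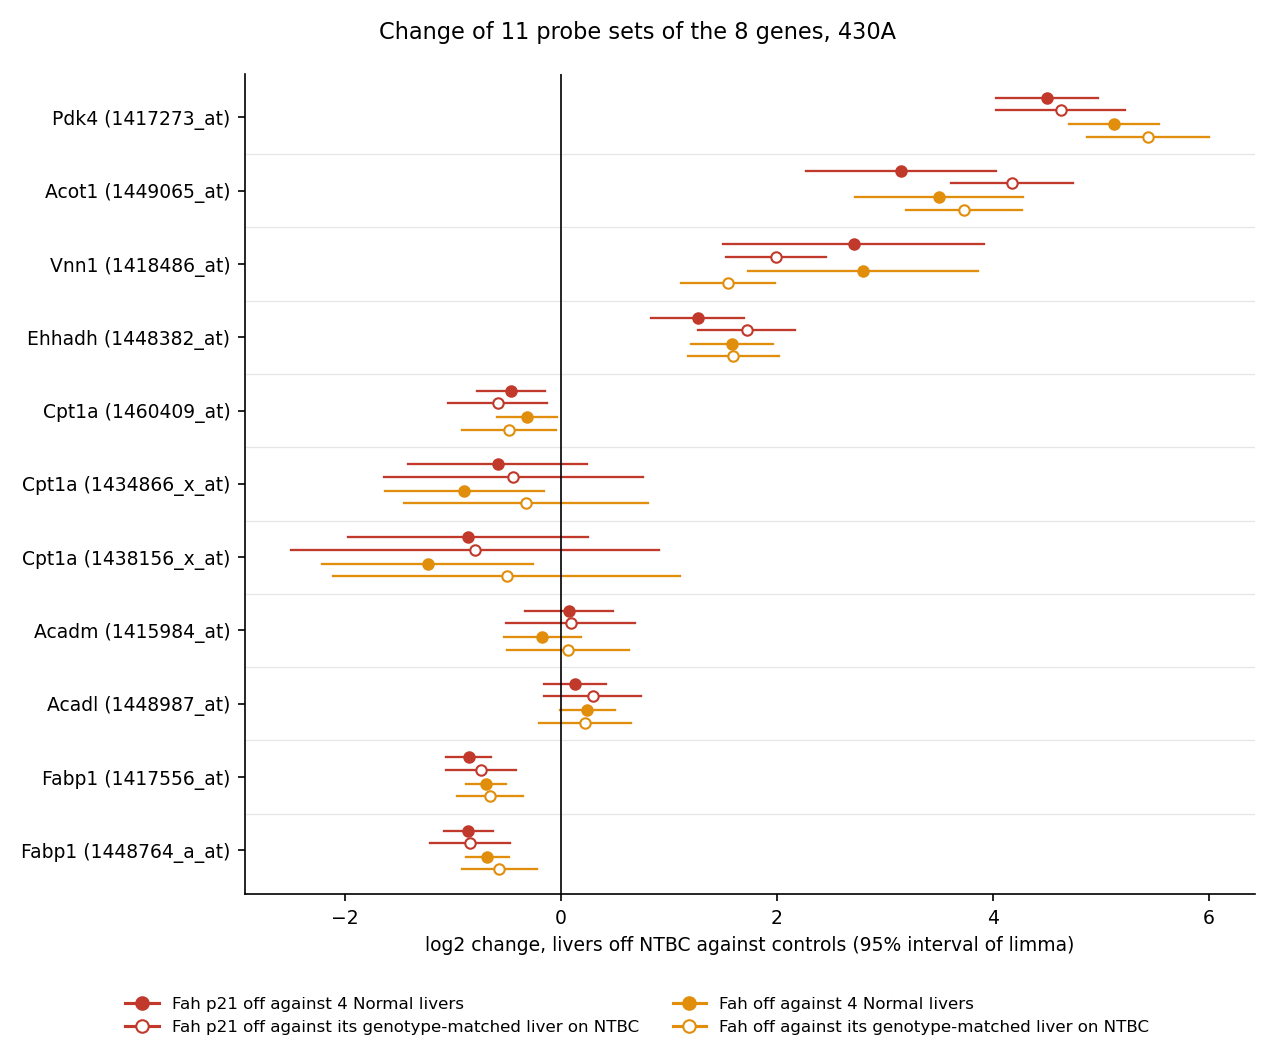
Log2 change with its 95% interval of limma for the 11 probe sets tested on 430A, in Fah p21 off and Fah off livers, against the 4 Normal livers (filled) and against the 1 liver of the same genotype on NTBC (open). Vnn1 is lower and Acot1 higher with the genotype-matched control, and the intervals of Acadm and Acadl include 0 in every contrast. The points of Pdk4, and of Acot1 against Normal 4, rest on controls below the filter level, so their size is uncertain.

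The third comparison asked whether the livers off NTBC differed by p21 (Fah p21 off, n = 2, against Fah off, n = 3). None of the 11 member probe sets passed in limma, where 0.0392% of all probe sets passed, and 1 had an unadjusted p under 0.05, where 8.06% of all probe sets did, a share near that of the members. That probe set was of Pdk4, at 1475.2 and 1345.9 in Fah p21 off livers, against 2212.1, 2577.3 and 1801.2 in Fah off livers. Its groups did not overlap, and its log2 difference was -0.62 ± 0.23 (95% interval -1.12 to -0.12, adjusted p = 0.485). Groups did not overlap for 5 of the 11 probe sets, namely those of Pdk4, Acot1, Ehhadh and Fabp1, all lower in Fah p21 off, and for 28% of all probe sets. The differences were -0.35 ± 0.42 for Acot1 (95% interval -1.28 to 0.58), -0.32 ± 0.20 for Ehhadh (-0.77 to 0.13) and -0.09 ± 0.58 for Vnn1 (-1.36 to 1.19). Fabp1 differed by -0.16 ± 0.10 and -0.18 ± 0.11, Acadm by 0.25 ± 0.19, Acadl by -0.12 ± 0.14, and Cpt1a by -0.15 ± 0.15 at its main probe set and 0.31 ± 0.40 and 0.38 ± 0.53 at the dimmer ones. When each genotype was first set against its own liver on NTBC, the differences of Acot1, Ehhadh, Vnn1 and Acadl were 0.45, 0.12, 0.44 and 0.07, of the opposite sign, those of the dimmer Cpt1a probe sets were -0.11 and -0.30, also turned, and none passed. These intervals, other than that of Pdk4 before adjustment, leave room for differences in either direction.

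The 430 2.0 array repeated the double knockout comparison in 2 further livers, against 1 Normal liver, a fit with 1 residual degree of freedom. Its spread comes from the 2 Fah p21 off livers and, through limma, from other probe sets, and the lone control is assumed to vary like them. Pdk4, Acot1 and Vnn1 rose there too. Of 12 member probe sets tested 4 rose and none fell in limma (3 rose and 1 fell with median scaling), where 11.5% of all probe sets passed, 7.71% higher and 3.8% lower. Pdk4 had signals of 3919.6 and 4550.3 in Fah p21 off livers, against 112.5 in the Normal liver, which on this array lay above the filter level, and changed by 5.18 ± 0.24 (36.3-fold, adjusted p = 0.000162). Acot1 had 3339.8 and 5092, against 334.9, a change of 3.61 ± 0.30 (12.2-fold, adjusted p = 0.00079). Vnn1 was read by a probe set shared with 430A, at 9875.7 and 13344, against 4251.5 (1.43 ± 0.26, adjusted p = 0.0157), and by one ending in _s_at, at 4112 and 6598.2, against 1158.2 (2.17 ± 0.31, adjusted p = 0.0065). The control of this array is a double knockout on NTBC, the condition in which Vnn1 was already above wildtype on 430A. Neither Vnn1 call held without the filter on dim probe sets (adjusted p = 0.104 and 0.0647) or without the intensity trend (0.118 and 0.079), and the first was also lost with median scaling (0.222).

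The other genes did not pass on 430 2.0. Ehhadh had 10204.6 and 13474.6 in Fah p21 off livers, against 6165.3 in the Normal liver, both higher, and changed by 0.93 ± 0.26 (95% interval 0.32 to 1.53, adjusted p = 0.0647, limma), a rise that passed with quantile normalization (1.1, adjusted p = 0.00366). All 3 Cpt1a probe sets were lower, with the main one at 4222.1 and 4146.7, against 6370.3 (-0.61 ± 0.22, adjusted p = 0.135). The others had 857.5 and 1071.9, against 1905.5 (-0.99 ± 0.26, adjusted p = 0.0517), and 485.3 and 632.9, against 1096.2 (-0.98 ± 0.28, adjusted p = 0.0692). The first of these passed with the 60th percentile filter (adjusted p = 0.0464) or the 25th percentile as offset (0.0494), and the second with median scaling (0.0391). The Fabp1 probe sets parted on this array. The _at probe set had 19096.6 and 24094 in Fah p21 off livers, against 30267.4 in the Normal liver (-0.50 ± 0.25, adjusted p = 0.272), whereas the _a_at probe set had 21868.3 and 25923.3, against 22537.6 (0.08 ± 0.24, adjusted p = 0.874). The fall of Fabp1 seen on 430A was therefore not seen at both probe sets here. Acadm had 10473.8 and 12986.2, against 10349.7 (0.17 ± 0.24), and Acadl had 4647.9 and 6029.8, against 5439.3 (-0.04 ± 0.25), with its dim probe set at 15.8 and 31.1, against 19.3 and not tested.

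**Figure D3:**
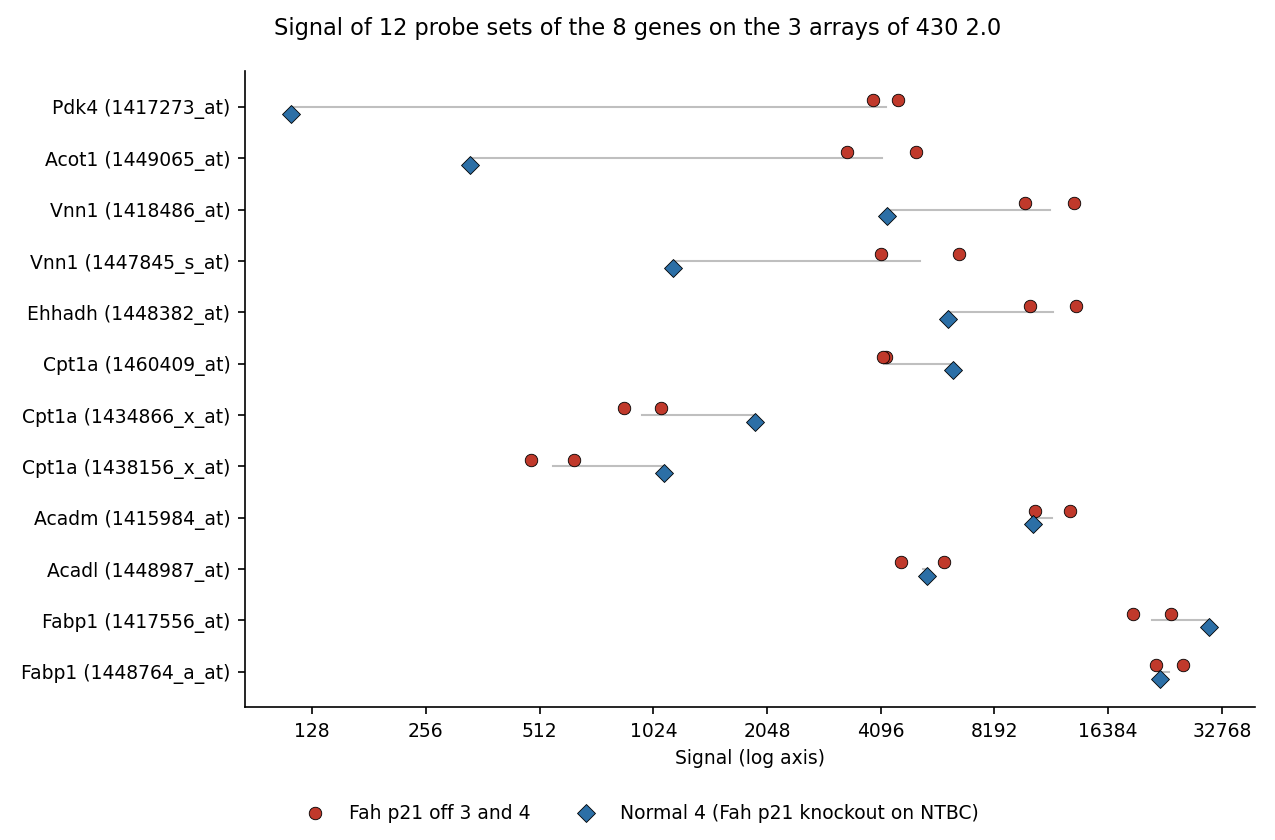
Signal (log axis) of the 12 probe sets tested on 430 2.0 in the 2 Fah p21 off livers (circles) and the 1 Normal liver (diamond), joined by a line that ends at the geometric mean of the circles. Pdk4 and Acot1 lie farthest from the Normal liver, and the Fabp1 probe sets differ in whether the circles lie below it or on both sides of it.

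The wider pathway was read from lists of 140 other genes, of which 117 were measured on 430A and 113 tested, with 1 probe set per gene. In Fah off livers 33 rose, 35 fell and 45 did not pass, a share of 60.2% where 36.2% of all genes passed. In Fah p21 off livers 22 rose, 36 fell and 55 did not pass, a share of 51.3% where 29.4% of all genes passed (15 rose and 42 fell with median scaling). Their median log2 change was -0.09 in Fah off and -0.10 in Fah p21 off, and that of all genes 0.004 and 0.09. None of the 113 passed between Fah p21 off and Fah off in limma, where 0.0435% of all genes passed, and 17 had an unadjusted p under 0.05, where 8.62% of all genes did. On 430 2.0, 25 rose and 14 fell of 127 tested, a share of 30.7% where 14% of all genes passed. The rises on 430A in both groups include Oxct1, Cyp4a31, Pdk3, Pparg, Cidea, Cidec and Hilpda. All controls of these genes lay below the filter level, so they entered the test only through livers off NTBC. Abcd2, Acot3, Acot6, Pdk3, Cidea and Cidec entered the rises on 430 2.0 in the same way. Acox3, a fall in Fah off, entered only through Normal livers.

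The steps before mitochondrial oxidation, uptake and the carnitine shuttle, had rises and falls. Of 12 uptake, binding and activation genes tested 4 rose and 2 fell in Fah off, and 4 rose and 3 fell in Fah p21 off. Fabp4, the fatty acid binding protein of adipocytes and macrophages, had signals of 2207.9 and 2522.6 in Fah p21 off, 2726.9 to 3255.9 in Fah off and 69 to 134.8 in Normal livers, and changed by 4.29 ± 0.23 and 4.59 ± 0.21. Of the marker sums given above, that of macrophages did not overlap between Fah p21 off and Normal livers and overlapped between Fah off and Normal livers. That of adipocytes overlapped in both. The sums are led by bright markers. Singly, Lyz2 (940.2 to 1667.3 in Fah off, 457 to 603.6 in Normal livers) and Cd68 (273.9 to 439.1 and 186.5 to 262.4) did not overlap. The macrophage markers Adgre1, Clec4f, Marco, Csf1r and Cd5l overlapped between Fah off and Normal livers. The part of these cell types in the rise of Fabp4 was not tested. Cd36, a fatty acid transporter, changed by 3.58 ± 0.30 in Fah p21 off and 3.41 ± 0.27 in Fah off, and Fabp7 by 1.73 and 1.41. Slc27a5, a bile acid and very long-chain acyl-CoA synthetase of the liver, fell (-1.59 and -1.41). In the shuttle 2 of 5 genes rose and 1 fell in Fah p21 off, and 3 rose and 1 fell in Fah off. The carnitine transporter gene Slc22a5 changed by 0.93 ± 0.21 and 1.40 ± 0.18, Crat by 1.04 and 0.79, and the peroxisomal Crot by -1.14 and -1.11. Cpt2, the partner of Cpt1a on the inner membrane, rose in Fah off (0.54 ± 0.14, adjusted p = 0.0125, limma) and changed by 0.17 in Fah p21 off without passing (adjusted p = 0.475).

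With the scaling of the deposited signals, the oxidation cycles themselves had more falls than rises. Quantile normalization moved bright members upward, Fabp1 (_at) in Fah off from -0.69 to -0.24 and Acadm in Fah p21 off from 0.08 to 0.49. The genes of the cycles were not counted separately with it. Of 18 mitochondrial genes tested 11 fell and none rose in Fah p21 off, and 8 fell and 2 rose in Fah off, with list medians of -0.48 and -0.27. On 430 2.0, 1 of 19 fell and none rose in Fah p21 off (5.26%, where 14% of all genes passed), with a median of -0.29. Acadsb, the dehydrogenase of short branched chains, fell in Fah p21 off (-1.57) and Fah off (-1.43), as did Echs1, the short-chain hydratase (-1.12 in each), Acadvl, the very long-chain dehydrogenase (-0.82 and -0.78), and Acad10 (-1.33 and -0.99). These stand beside Acadm and Acadl, which did not pass. Of 18 peroxisomal genes tested 2 rose and 8 fell in Fah p21 off, and 3 rose and 11 fell in Fah off. Phyh, which starts alpha oxidation of phytanic acid, had signals of 1801.6 and 1778 in Fah p21 off, 1319.3 to 1479.6 in Fah off and 11655.2 to 12781.6 in Normal livers, and changed by -2.76 ± 0.11 and -3.11 ± 0.09. Nudt7, a peroxisomal coenzyme A hydrolase, fell (-2.64 and -2.40). Ehhadh thus rose beside peroxisomal genes of which most that passed were lower. Abcd2, a peroxisomal transporter of very long-chain fatty acids, had signals of 200.7 and 215.8 in Fah p21 off and 219.4 to 283.1 in Fah off livers, against 86.1 in Normal 3 and 2.6 to 6 in the other controls. Both rises passed, but as those 3 controls lie below the offset no size is given. Amacr, a racemase of branched chains, fell in Fah off (-1.71) and differed by 0.68 ± 0.41 in Fah p21 off without passing (adjusted p = 0.251). Among controls Amacr was high in Normal 4 (1583.6, against 493.2 to 697.4 in the other 3), and the difference of 2.39 ± 0.43 between Fah p21 off and Fah off did not pass (adjusted p = 0.0857).

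Omega oxidation, ketone bodies and the relatives of the members moved unevenly. Of 4 omega oxidation genes 2 rose and 1 fell in Fah p21 off, and 3 rose and 1 fell in Fah off. Cyp4a31 was at least 1.18-fold and 1.81-fold higher over dim controls, Aldh3a2, a fatty aldehyde dehydrogenase, rose by 1.02 and 1.30 on the log2 scale, while Cyp4a12a fell (-1.09 and -1.23). Cyp4a14 had signals of 4673.3 and 3898.9 in Fah p21 off, 4486.2 to 5489.1 in Fah off and 58, 1094.3, 3042.5 and 557.9 in Normal 4, 3, 2 and 1, a wide range of controls. Its change did not pass in Fah p21 off (2.83 ± 1.06, adjusted p = 0.0683, limma), passed in Fah off (3.03 ± 0.93, adjusted p = 0.0263) and did not differ past the test between them (adjusted p = 0.975). On 430 2.0 Cyp4a14 had 7765.6 and 9771.5 in Fah p21 off livers, against 94.2 in the lone Normal liver. That liver is a double knockout on NTBC, like Normal 4, and may be the same mouse. Set first against the liver of its own genotype on NTBC, Cyp4a14 rose more in Fah p21 off than in Fah off by 3.83 ± 0.30 (adjusted p = 0.0231), a value that rests on 58 in Normal 4 and 1094.3 in Normal 3. Some Cyp4a genes are close in sequence, so a probe set may read more than 1 member of the family. Of 3 ketone body genes Oxct1, whose enzyme uses ketone bodies as fuel, was at least 2.87-fold higher in Fah p21 off and 1.36-fold in Fah off over dim controls, and Acat1 (-0.76 and -0.64) and Bdh1 (-0.51 and -0.35) fell in both. Of 9 other thioesterase genes Acot9, a mitochondrial enzyme, rose by 2.30 in both, Acot8 rose in Fah off (0.67) and Acot12 fell in Fah p21 off (-0.56). Around Vnn1, of 6 genes of coenzyme A synthesis and pantetheinase, Ppcs, a synthesis enzyme, rose by 1.44 ± 0.15 and 2.15 ± 0.14, and the synthesis enzymes Pank1 (-1.26 and -1.30) and Coasy (-1.10 and -1.28) fell. Vnn3, a relative of Vnn1, fell in Fah off (-1.25 ± 0.20, adjusted p = 0.000525), and its change of -0.63 in Fah p21 off did not pass (adjusted p = 0.0537). Around Pdk4 stood 8 genes of pyruvate dehydrogenase and its kinases. Of these Pdk3 was at least 1.35-fold and 1.87-fold higher over dim controls, and Pdk1 fell (-2.44 and -2.36). At their brightest probe sets the subunit genes Pdhb (0.66) and Pdha1 (-0.44) passed in Fah off. They did not pass in Fah p21 off (-0.17 and -0.24), nor did their difference between Fah p21 off and Fah off (adjusted p = 0.363 and 0.808, limma). The second Pdhb probe set was lower off NTBC, at 162.2 and 136.5 in Fah p21 off, 136.4 to 174.3 in Fah off and 250.2 to 294.6 in Normal livers. The rise of Pdhb was thus not seen at both probe sets. The second one of Pdha1 overlapped, at 902.8 and 921.5, 889 to 900.6 and 773.1 to 1136.9 in these groups.

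Ppara itself had signals of 479.3 and 410.7 in Fah p21 off livers, 741.6, 730.5 and 300.4 in Fah off livers and 970.6, 1239.9, 732.2 and 535.8 in Normal 4, 3, 2 and 1. The groups off NTBC were on average lower, but Fah off overlapped the controls and neither change passed (-0.89 ± 0.38, adjusted p = 0.107, and -0.59 ± 0.34, adjusted p = 0.196, limma). On 430 2.0 Ppara was lower by 1.13 on the log2 scale (-1.13) at a brighter probe set that 430A lacks. That probe set had 1392.1 and 1473.3 in Fah p21 off livers, against 3145.9 in the lone Normal liver. The probe set shared with 430A had 664.2 and 518.4 there in Fah p21 off livers, against 1499.8 in the Normal liver. A further one had 725.3 and 655.4, against 1335. At its brightest probe set Rxra, its partner, fell in both groups off NTBC on 430A (-1.47 ± 0.23 and -1.51 ± 0.20). The signals were 534.3 and 749.4 in Fah p21 off, 425.6 to 750.3 in Fah off and 1577 to 1930 in Normal livers. Its dimmer probe set overlapped the controls in both, at 609.3 and 713.9, 435.4 to 718.2 and 675.4 to 1445.3 in the same order. Of 17 receptors and regulators tested 2 rose and 5 fell in Fah p21 off, and 4 rose and 4 fell in Fah off. Fgf21, a fasting hormone of the liver and a PPAR alpha target, rose by 3.77 ± 0.57 and 4.44 ± 0.50 with 3 of its 4 controls dim, and Pparg, the fat cell member of the receptor family, was at least 2.03-fold and 2.49-fold higher over dim controls. Mlycd, which removes the malonyl-CoA that inhibits CPT1A, fell (-1.03 and -0.53). Of 13 other PPAR alpha targets 6 rose and 1 fell in Fah p21 off, and 8 rose and none fell in Fah off, with a median of 0.75 in Fah off. Among them were 3 lipid droplet genes with dim controls, Cidec (at least 6.18-fold and 11.2-fold higher), Cidea (at least 1.44-fold and 1.76-fold) and Hilpda (at least 2.85-fold and 2.80-fold), and the lipase gene Pnpla2 (log2 changes of 0.58 and 1.15).

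**Figure D4:**
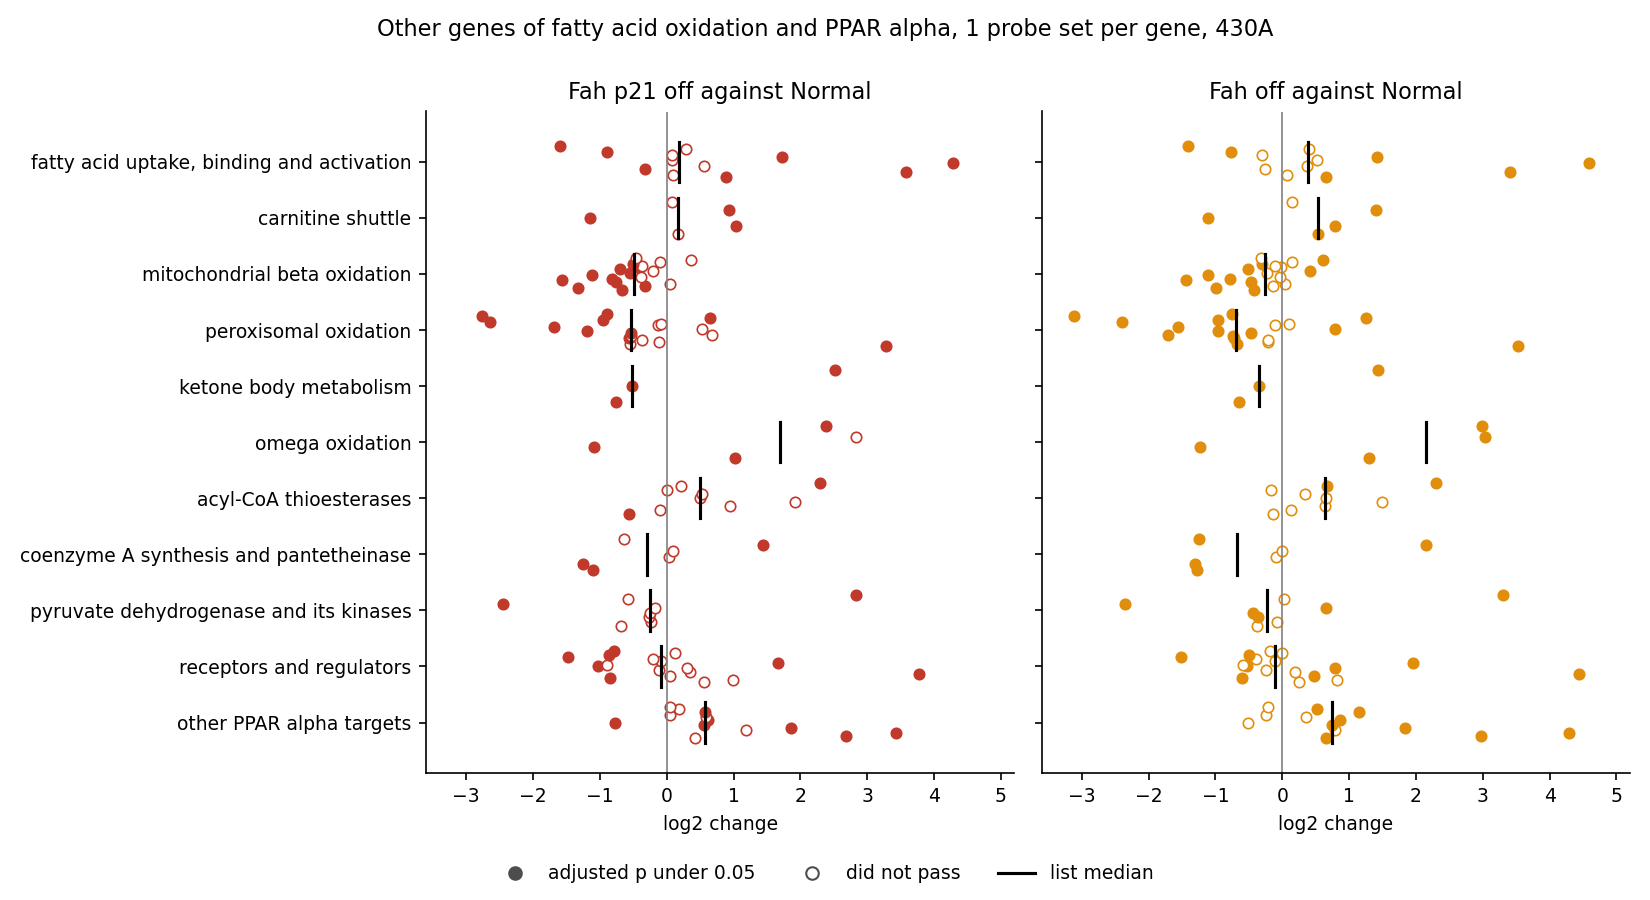
Log2 change of each other gene tested of the 11 lists in Fah p21 off and Fah off livers against Normal livers (points, 1 probe set per gene, filled where the adjusted p of limma was under 0.05), with the list median as a line. Filled points lie mostly left of 0 for mitochondrial and peroxisomal oxidation and mostly right of 0 for other PPAR alpha targets. The size of rises over controls below the filter level is uncertain.

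For each member that passed, the genes with the most similar profile over the 9 arrays of 430A were taken by the root mean square difference of centred log2 values among 9195 genes, as a description with no test. They were Gpx2 (0.30) and Fabp4 (0.32) for Pdk4, Unc5b (0.32) and Cyp4a31 (0.39) for Acot1, Nqo1 (0.27) and Asns (0.28) for Vnn1, and Hsdl2 (0.10) and Nudt9 (0.15) for Ehhadh. Asns shared the split of Vnn1 among controls, with 651.6 and 828.3 in Normal 4 and 3, against 244 and 227.1 in Normal 2 and 1. Hsdl2 had the low Normal 4 of Ehhadh, at 555.6, against 915.4 to 1098.5 in the other Normal livers. The nearest genes were Lgals9 (0.04) and Akr1c6 (0.06) for Fabp1, and Eif4a2 (0.08) and Lpcat3 (0.09) for Cpt1a. Among the members the closest pairs were Cpt1a and Fabp1 (0.25) and Acadm and Acadl (0.26), and among those that rose Pdk4 and Acot1 (0.88) and Ehhadh and Acot1 (0.99). The measure is not scaled to how much a gene varies, so genes that vary little lie close whatever their pattern. The SD of the centred profile was 0.23 for Cpt1a and 0.38 for Fabp1, against 2.44 for Pdk4 and 1.74 for Acot1. These distances therefore do not rank how well pairs follow each other. The control signals of Pdk4, Gpx2 (6.3 to 18.6), Unc5b and Cyp4a31 were dim, which limits these values.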

How the data were processed

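Liver RNA of 12 samples was measured, 9 on Affymetrix 430A and 3 on 430 2.0 arrays. The authors deposited 1 linear signal intensity per probe set and array, and per the submitters' processing notes these are MAS5 values from GCOS 1.4.0.036. Between the 2nd and 98th percentile the arrays of 430A averaged 348 to 349, so they had been scaled to a common level. Scan dates were not known here. At most 0.407% of signals were identical in any of the 36 pairs of 430A arrays, so none was treated as a duplicate.

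Symbols of GEO's platform annotation were updated by Entrez identifier to RefSeq names (GRCm38.p6), which matched 20351 probe sets on 430A and 34741 on 430 2.0. A single symbol was held by 20380 probe sets of 430A, several by 691 and none by 1555 (34945, 932 and 9160 for 430 2.0). Those with several named no gene, apart from the stated one of Acot1 and Acot2. Values were log2(signal + offset), with the 10th percentile of signals as offset. Tested were those reaching the 40th percentile of their array on 2 or more arrays (15307 for 430A, 26925 for 430 2.0). All arrays of a table entered 1 limma fit with the intensity trend (limma 3.58.1, R 4.3.3), with 6 residual degrees of freedom on 430A and 1 on 430 2.0, and p-values were Benjamini-Hochberg adjusted over all probe sets tested. The script was tested on simulated data. The tables were scaled separately, so no test crosses them.

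In the lists each gene was read by the probe set with its highest mean log2 signal. Named were all member probe sets, up to 4 genes per list that passed with the largest changes, Ppara, Rxra, Fah, Cdkn1a, the marker lists and the 2 nearest profiles of each member that passed. The Acot2 probe sets were added for their overlap with Acot1, and further probe sets of Pdhb, Pdha1, Rxra and Ppara are given as values only. Members, lists and tests were chosen with earlier results of these data known. Alternatives covered the filter, offset, scaling, trend, controls, the replicate block and leaving out each array of 430A. Matplotlib 3.10.9 (Python 3.11.15) drew the figures.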

Additional observations from a re-analysis of the deposited data

Results flagged for a closer look

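In the Normal group on 430A 67 sets of 4 values, those of members, named genes and nearest profiles, were tested for a liver that stood apart from the other 3 by Dixon's criterion, and 9 were found, where chance gives about 1 in 20. None of the 12 member probe sets was among them. Normal 3, the Fah knockout on NTBC, stood apart for Abcd2 (86.1, against 2.6 to 6 in the other livers), Cd36 (448.9, against 187.7 to 220.8) and Pdha1 (3008.8, against 2295.8 to 2398.4). Normal 4, the double knockout on NTBC, stood apart for Cidec (78.6, against 34.6 to 35.1), Pank1 (1138.9, against 2252.8 to 2274.1) and Pdk3 (12.6, against 6.1 to 6.4). Normal 2, the wildtype on NTBC, stood apart for Cidea (26.2, against 6.5 to 8.5), Unc5b (67.4, against 12.4 to 17.5) and Akr1c6 (11593.1, against 10943 to 11041.8). Each is the value of 1 mouse. The Normal signals of Cidec, Cidea, Unc5b and Pdk3, and those of Abcd2 outside Normal 3, lie below the filter level of 73.8 to 100.1, near background, so these values show little about the livers.

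Withdrawal effects were also set against each other after each genotype was compared with its own liver on NTBC. Of 15307 probe sets 1 passed in limma, that of Cyp4a14, with a rise 3.83 ± 0.30 larger on the log2 scale in Fah p21 off than in Fah off (adjusted p = 0.0231). The livers off NTBC overlapped (4673.3 and 3898.9 in Fah p21 off, 4486.2, 5489.1 and 4738.8 in Fah off), and the value rests on the control livers, at 58 in Normal 4 and 1094.3 in Normal 3, which are 1 mouse each.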

How the results depend on the processing

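Against Normal on 430A, Pdk4, Acot1, Vnn1, Ehhadh and both Fabp1 probe sets passed with their direction in 19 of 19 alternatives in both comparisons, with fitted log2 changes of 4.57 to 5.44 for Pdk4 (over dim controls), 3.16 to 4.13 for Acot1, 1.43 to 1.82 for Ehhadh and -0.763 to -0.238 for Fabp1 (_at) in Fah off. Where a cause is not plain from fewer arrays or controls, it was not tested. With the genotype-matched liver as control, 1851 probe sets were called in Fah p21 off (4353 in the full fit) and 2579 in Fah off (5437), and 42 other pathway genes in Fah off (68). Leaving out 1 array gave 2477 to 4636 in Fah p21 off, the lower ones without a double knockout liver (2477 and 2563), and 4304 to 5244 in Fah off. Between Fah p21 off and Fah off, 6 probe sets were called, 1 at the 60th percentile filter, 1 with an offset of 1, 14 with the 25th percentile as offset, 3 with median scaling, 13 without the trend, 1 in the genotype-matched difference, and 1 to 58 when leaving out 1 array (58 and 2 without Fah p21 off 1 or 2, and 1 without each of the others). Of the other pathway genes 1, Cyp4a14, was called in that matched difference, an alternative chosen after seeing the data, where none was before. The changes that turned sign had not passed. Acadm in Fah off was 0.082 with quantile normalization and 0.065 with the genotype-matched control. In Fah p21 off, median scaling gave -0.17 for Acadm and -0.11 for Acadl, and Acadm was -0.000123 without Normal 3 and up to 0.176 without another array. Between Fah p21 off and Fah off, Vnn1 was 0.044 with quantile normalization and -0.235 to 0.062 when leaving out 1 array, and the matched difference gave 0.44 for Vnn1, 0.45 for Acot1, 0.12 for Ehhadh, 0.073 for Acadl, and -0.11 and -0.30 for the dimmer Cpt1a probe sets. The dimmest was -0.17 without Fah off 1, -0.011 without Fah p21 off 2 and up to 0.834 without another array. On 430 2.0, 1002 probe sets, 2 of members and 15 other pathway genes were called without the filter, and 1225, 2 and 15 without the trend (3101, 4 and 39 in the full fit), Acadl was 0.12 with quantile normalization and Fabp1 (_a_at) -0.060 with median scaling. Leaving out an array of 430 2.0 was not run, since no residual degree of freedom would be left. Groups share replicate numbers. The 7 same-numbered pairs correlated at -0.281 to 0.071 in their deviations from group means, and 0 of 9 arrays correlated best with their own number. No pairing by number was seen, but this check cannot exclude it. Each Normal liver is of another condition, and the deviations of the 2 Fah p21 off livers mirror each other. With the replicate block 3479, 4463 and 1 probe sets were called in Fah p21 off, in Fah off and between them, Vnn1 differed by 0.31 between Fah p21 off and Fah off, and the Cpt1a call in Fah p21 off was lost (-0.35). Dim probe sets, such as that of Pdk4 in Normal livers and the second of Acadl, are limited by their signal over background.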
